A study of Mus musculus with 9 samples.

Results

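The 36 genes described here encode enzymes of the tricarboxylic acid (TCA) cycle, enzymes that make or break down glutamine and glutamate, enzymes that refill or drain the cycle (anaplerosis), and the mitochondrial carriers that move citrate, malate, aspartate and oxoglutarate. They were chosen by symbol as a named list of metabolic genes, without a measured value in the rule. Earlier results of these data were nevertheless known when the genes, lists and motifs were chosen. All 36 were found among the 24341 genes listed for each library, and all 36 passed the filter on low counts, which 13757 genes passed.

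RNA-Seq of fibroblasts grown from mouse embryos (MEFs), cells of connective tissue, had been made in 9 libraries of C57BL/6 strain, cultured in DMEM with 10% FBS. The genotype labels are WT (n = 3), *Atm-/-* (n = 3, without the DNA damage kinase ATM) and *Sirt6-/-* (n = 3, without the NAD-dependent deacylase SIRT6). The study related ATM and SIRT6 to age-associated changes of metabolism. In the labels P53-/- and *Atm-/-*P53-/- mice also appear as sources of MEFs without being tied to a library, and the study's methods describe its immortalized *Atm-/-* line as p53-/- as well, received from another laboratory than the immortalized *Sirt6-/-* line. They do not say which MEFs were sequenced. Genotype, p53 status and cell line therefore cannot be told apart in any comparison below.

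The label genes were checked first, as normalized CPM (reads of a gene per 1000000 reads of its library, scaled between libraries with TMM factors). *Sirt6* had 15.3, 12.9 and 15 CPM in WT and 0.123, 0.154 and 0.21 CPM in *Sirt6-/-*. *Atm* went against its label, with 48.2, 51.7 and 51.7 CPM in WT and 109, 102 and 102 CPM in the libraries labelled *Atm-/-*, where it was higher; a count per gene does not show which exons were read, and the name "libraries labelled *Atm-/-*" is kept throughout. *Trp53* had 223, 227 and 208 CPM in WT, 23.3, 27 and 27.4 CPM in the libraries labelled *Atm-/-* and 279, 282 and 276 CPM in *Sirt6-/-*. Of 11 fibroblast markers, 9 or 10 were above 10 CPM in each genotype, although *Lum* was near 0 in all libraries and *Thy1* in *Sirt6-/-*. Their summed level differed widely, with 28150 to 31230 CPM in WT, 9114 to 9361 CPM in the libraries labelled *Atm-/-* and 20220 to 20570 CPM in *Sirt6-/-*. Epithelial markers summed to 18.3 to 21.8, 41.1 to 46.3 and 14.3 to 18.3 CPM in the same order, endothelial markers to 3.11 to 5.15, 9.81 to 12.5 and 0.649 to 0.990 CPM, macrophage markers to 14.96 to 16.0, 6.79 to 7.39 and 7.09 to 8.44 CPM, and skeletal muscle markers to 12.5 to 15.2, 1.29 to 1.98 and 1.41 to 1.85 CPM. The part of these marker differences in the results below was not tested, and in bulk RNA fewer cells of a type and less RNA per cell cannot be told apart. Libraries held 32187040 to 33837949 counted reads. The second WT library stood further from the other WT libraries (chi-square per gene 16.4 and 15.1) than any other pair of one genotype (5.24 to 6.88). Values without it are therefore given for *Gpt2*, *Idh1*, *Pcx*, *Pck2* and *Me3*, for which it was the lowest in WT and whose differences were wide. They are also given for *Gls2*, for which it was the highest in WT. All 36 genes' values below are levels in CPM or, where said, log2 fold changes. Nothing in the labels says that libraries of a genotype came from separate cultures or embryos, and the p-values then measure only the spread between these libraries, which may be technical.

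In the TCA cycle, acetyl groups join oxaloacetate to form citrate, which is oxidized in the mitochondrion back to oxaloacetate while NADH and FADH2 are made for respiration. Glutamine enters as oxoglutarate once its nitrogen has been removed, in the last step by glutamate dehydrogenase or a transaminase, and pyruvate enters as oxaloacetate through pyruvate carboxylase. Citrate leaves through a carrier and is cleaved in the cytosol by ATP-citrate lyase for lipid synthesis and acetylation, and mitochondrial PEP carboxykinase drains oxaloacetate toward phosphoenolpyruvate. In dividing fibroblasts glutamine is a major carbon source of the cycle.

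The promoters below, from 250 bases before to 50 bases after the start of a gene in RefSeq on GRCm38.p6 (the mm10 assembly, which the submitters' processing notes name), are shown because these genes include the largest differences of the list. *Idh1* and *Idh2* are the isozyme pair with the largest shift in share, *Glul* and *Glud1* belong to the glutamine step, and *Pcx*, *Pck2* and *Me3* to the step of carboxylation, malic enzyme and PEP. *Glul* lies at chr1:153899679-153899978 on the plus strand, *Glud1* at chr14:34310477-34310776 on the plus strand, *Idh1* at chr1:65186430-65186729 on the minus strand, *Idh2* at chr7:80115301-80115600 on the minus strand, *Pcx* at chr19:4510222-4510521 on the plus strand, *Pck2* at chr14:55540016-55540315 on the plus strand and *Me3* at chr7:89632568-89632867 on the plus strand. For *Idh1* and *Pcx*, which have 2 listed starts, the first is printed. Each sequence runs 5′ to 3′ on the gene's own strand, and capitals mark a match to 1 of 4 motifs described after the sequences.
Glul promoter: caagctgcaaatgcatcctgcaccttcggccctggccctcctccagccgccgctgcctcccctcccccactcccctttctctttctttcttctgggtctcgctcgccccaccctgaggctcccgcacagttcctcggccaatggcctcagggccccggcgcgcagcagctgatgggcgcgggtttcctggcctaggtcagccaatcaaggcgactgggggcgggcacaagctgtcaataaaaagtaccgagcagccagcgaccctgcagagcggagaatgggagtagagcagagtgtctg
Glud1 promoter: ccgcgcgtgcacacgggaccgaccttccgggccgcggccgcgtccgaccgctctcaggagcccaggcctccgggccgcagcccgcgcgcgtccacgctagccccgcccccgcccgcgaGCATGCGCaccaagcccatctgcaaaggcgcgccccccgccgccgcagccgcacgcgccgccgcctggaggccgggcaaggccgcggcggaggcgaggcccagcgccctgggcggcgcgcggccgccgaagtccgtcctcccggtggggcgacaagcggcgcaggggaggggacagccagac
Idh1 promoter: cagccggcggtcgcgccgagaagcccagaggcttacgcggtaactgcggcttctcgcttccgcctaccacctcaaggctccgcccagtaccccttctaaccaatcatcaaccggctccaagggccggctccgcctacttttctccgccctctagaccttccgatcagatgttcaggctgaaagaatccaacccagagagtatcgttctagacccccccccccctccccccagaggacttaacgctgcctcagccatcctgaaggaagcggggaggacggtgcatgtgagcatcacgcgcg
Idh2 promoter: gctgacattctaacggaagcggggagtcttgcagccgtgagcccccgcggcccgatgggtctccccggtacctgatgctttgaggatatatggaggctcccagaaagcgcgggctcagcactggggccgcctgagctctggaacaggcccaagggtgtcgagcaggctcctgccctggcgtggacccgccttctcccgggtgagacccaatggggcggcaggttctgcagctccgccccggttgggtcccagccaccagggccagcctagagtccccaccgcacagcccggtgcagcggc
Pcx promoter: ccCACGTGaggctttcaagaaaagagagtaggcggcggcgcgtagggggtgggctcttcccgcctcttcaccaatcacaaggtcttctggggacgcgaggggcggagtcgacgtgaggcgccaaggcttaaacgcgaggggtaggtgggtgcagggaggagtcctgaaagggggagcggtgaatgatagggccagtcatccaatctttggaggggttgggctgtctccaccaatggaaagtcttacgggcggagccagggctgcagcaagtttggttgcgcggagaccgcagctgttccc
Pck2 promoter: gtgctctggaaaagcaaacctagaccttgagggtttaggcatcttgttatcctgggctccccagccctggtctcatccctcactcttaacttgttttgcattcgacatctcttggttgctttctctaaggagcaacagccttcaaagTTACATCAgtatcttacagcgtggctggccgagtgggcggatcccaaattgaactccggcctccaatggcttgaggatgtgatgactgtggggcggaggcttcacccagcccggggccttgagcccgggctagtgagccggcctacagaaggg
Me3 promoter: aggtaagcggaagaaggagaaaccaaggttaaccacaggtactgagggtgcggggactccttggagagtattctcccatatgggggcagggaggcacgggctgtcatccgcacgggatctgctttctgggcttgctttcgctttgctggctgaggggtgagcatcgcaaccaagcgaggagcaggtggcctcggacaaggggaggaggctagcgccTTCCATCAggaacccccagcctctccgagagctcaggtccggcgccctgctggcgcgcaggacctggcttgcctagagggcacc

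RefSeq promoters were matched for 31 of the 36 genes and were searched on both strands for 4 motifs; no matches in these promoters overlapped each other. TGATGNAA, the core of the amino acid response element that factors of the ATF4 and C/EBP families bind, was in 3 of 31 (9.68%) and in 4.51% of all 27025 genes with a promoter. The 3 were *Pck2* (first base at -103 from the start), *Got1* (-102) and *Me3* (-34); in the printed *Pck2* and *Me3* promoters it reads on the opposite strand, as TTACATCA and TTCCATCA. GCATGCGC, the core that nuclear respiratory factor 1 binds, was in *Glud1* (-132), *Sdhb* (-54) and *Ogdh* (9.68% of the list, 3.05% of all genes). CACGTG, the E-box of MYC and other helix-loop-helix factors, was in *Pcx* (-248), *Slc25a1* (-239), *Slc25a13* (-125) and *Ogdh* (12.9%, against 8.09% of all genes). TCACNCCAC, the sterol element bound by SREBP, was in 0 of 31 and in 1.44% of all genes. The 27025 genes were not limited to those passing the filter on low counts, which all 36 genes of the list passed. A gene with several listed starts counted if any of them matched. The shares are therefore not matched for expression or number of starts. *Glud1* had the highest GC content of the printed promoters (81%) and *Pck2* the lowest (55%).

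Against WT, the list moved in both directions in each genotype. In the libraries labelled *Atm-/-*, 13 of 36 genes were higher, 15 lower and 8 did not pass the test (quasi-likelihood test of edgeR, adjusted p under 0.05 after Benjamini and Hochberg over 13757 genes). This is 36.1% higher and 41.7% lower, where 35.3% and 32.8% of all tested genes were called higher and lower. In *Sirt6-/-*, 13 were higher, 19 lower and 4 did not pass. Here 36.1% were higher and 52.8% lower, against 38.7% and 36.7% of all tested genes. At least a 2-fold difference was seen in 6 genes (16.7%) in the libraries labelled *Atm-/-*, where 22.8% of all genes had one, and in 8 genes (22.2%) in *Sirt6-/-*, where 29.3% of all genes had one. The 6 were *Glul*, *Gls2*, *Me3* and *Slc25a10*, which were higher, and *Pck2* and *Gpt2*, which were lower. The 8 were *Glul*, *Pcx*, *Me3*, *Acly* and *Gls2*, higher, and *Slc1a5*, *Slc25a13* and *Idh3a*, lower. The median log2 fold change over the list was -0.03 and -0.16, and over all genes 0.03 and 0.02. Both comparisons use the same WT libraries. With library totals in place of TMM factors the median of all genes in the libraries labelled *Atm-/-* against WT shifted by 0.16, the calls over all genes went from 51.8% to 65.1% higher, and the list went to 19 higher and 11 lower; the same change gave 13 higher and 16 lower in *Sirt6-/-*, where the calls over all genes went from 51.4% to 57.5% higher.

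**Figure D1:**
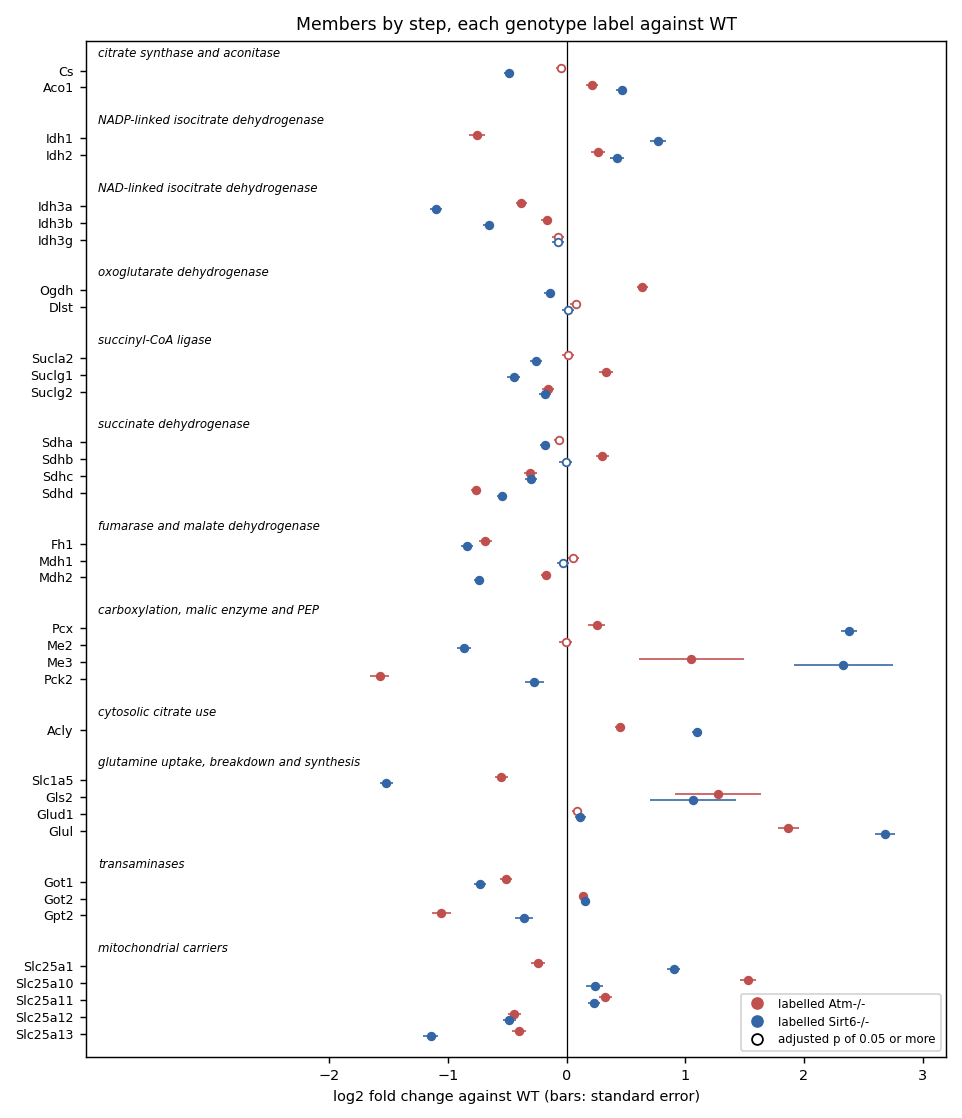
Log2 fold change against WT (x axis) of the 36 genes, grouped by step, in the libraries labelled *Atm-/-* (red) and in *Sirt6-/-* (blue), from 3 against 3 libraries, with standard errors as bars and open points for an adjusted p of 0.05 or more. *Glul*, *Pcx* and *Me3* lie farthest to the right in *Sirt6-/-*. Farthest to the left lie *Pck2* in the libraries labelled *Atm-/-* and *Slc1a5* in *Sirt6-/-*.

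Levels per length ordered the list. Per kilobase of the listed transcript, the levels in WT ran from 362 ± 6.04 CPM per kilobase for *Mdh2*, the mitochondrial malate dehydrogenase, through *Got2* (160.2 ± 2.5) and *Cs* (157 ± 7.24), to 0.316 ± 0.157 for *Gls2* and 0.0797 ± 0.0246 for *Me3* (mean ± SD, n = 3). *Got2* and *Cs* are neighbours in WT whose difference was within their spread. The median gene of the list was at 51.0 CPM per kilobase in WT, 47.3 in the libraries labelled *Atm-/-* and 43.0 in *Sirt6-/-*. *Gls2* and *Me3* stayed below 3 CPM in every genotype, so their fold changes rest on few reads. *Glul* and *Pcx*, next lowest in WT, rose from 3.31 ± 0.264 and 5.95 ± 0.494 to 21.3 ± 1.02 and 31 ± 0.748 CPM per kilobase in *Sirt6-/-*.

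**Figure D2:**
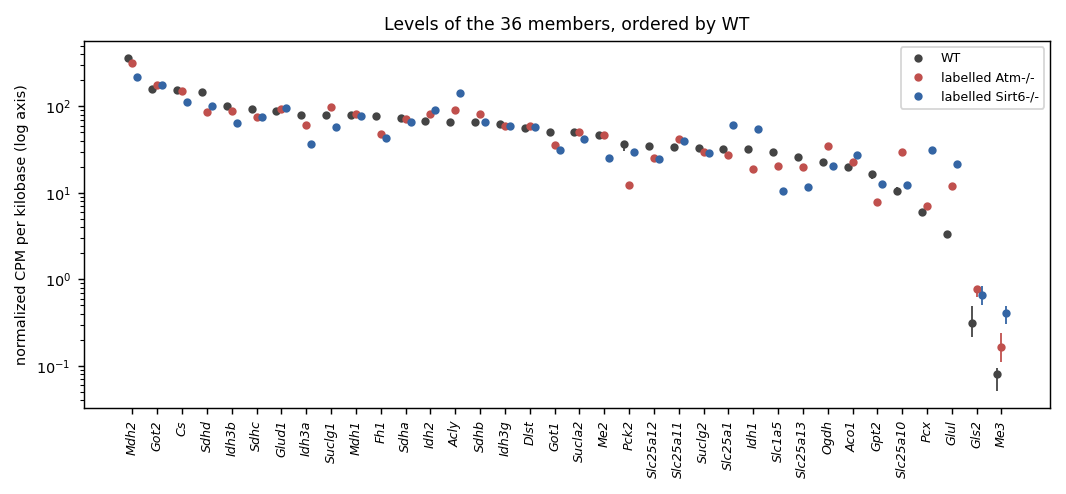
Mean normalized CPM per kilobase on a log axis for the 36 genes, ordered by WT, with lines from the lowest to the highest of 3 libraries; grey is WT, red the libraries labelled *Atm-/-* and blue *Sirt6-/-*. *Pck2* lies below its neighbours in red. In blue, *Pcx* lies above its neighbours, and *Glul* lies below *Pcx* and above *Gls2*.

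The gene of glutamine synthesis was higher in both genotypes, while genes of glutamine uptake went in different directions. *Glul* (glutamine synthetase, which joins ammonia to glutamate; chr1:153899944-153909723, plus strand, GENCODE M21) had 8.44, 9.78 and 9.65 CPM in WT, 32, 32.9 and 36.9 CPM in the libraries labelled *Atm-/-*, and 58.3, 63.1 and 58 CPM in *Sirt6-/-*. Both sets lay above every WT library, and *Sirt6-/-* above those labelled *Atm-/-*. The differences from WT were 3.65-fold, a log2 fold change of 1.87 ± 0.09 (± its standard error, here and below), and 6.43-fold, 2.69 ± 0.08, with adjusted p of 1.2e-12 and 3.3e-15 from the quasi-likelihood test of edgeR, adjusted after Benjamini and Hochberg as all adjusted p below. *Slc1a5* (the ASCT2 carrier that takes up glutamine; chr7:16781340-16798274, plus strand) went the other way, with 81.4, 84.1 and 81.3 CPM in WT, 55.2, 56.8 and 56.3 CPM in the libraries labelled *Atm-/-*, and 27.8, 28.4 and 29.8 CPM in *Sirt6-/-*. The 3 genotypes did not overlap. *Slc1a5* had log2 fold changes of -0.55 ± 0.05 and -1.52 ± 0.06 and adjusted p of 5.3e-08 and 3.2e-14. *Gls2* (which encodes a mitochondrial enzyme that splits glutamine into glutamate and ammonia) was higher in both from few reads, with 0.565, 1.18 and 0.508 CPM in WT, 1.99, 1.97 and 1.51 CPM in the libraries labelled *Atm-/-*, and 1.2, 1.98 and 1.56 CPM in *Sirt6-/-* and log2 fold changes of 1.28 ± 0.36 and 1.07 ± 0.36, the latter not called without some of the single libraries. Without the second WT library, the highest of WT, the log2 fold changes of *Gls2* were 1.75 and 1.54. *Glud1* (glutamate dehydrogenase) varied little, with 1 call, in *Sirt6-/-*, at a log2 fold change of 0.12 ± 0.04 (adjusted p = 0.02), lost without some of the single libraries; it was 0.09 ± 0.04 in the libraries labelled *Atm-/-* (adjusted p = 0.072).

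Of the transaminases, which move amino groups between glutamate and other acids, 2 were lower and 1 was higher in both genotypes. *Got1*, the cytosolic aspartate aminotransferase, had 106, 104 and 106 CPM in WT, 69.3, 75.9 and 76.9 CPM in the libraries labelled *Atm-/-*, and 63.2, 65.7 and 62 CPM in *Sirt6-/-*, below WT in all 6 libraries (log2 fold changes -0.51 ± 0.05 and -0.73 ± 0.05, adjusted p = 9.2e-08 and 5e-10). *Got2*, the mitochondrial form, was slightly higher in both, at 0.14 ± 0.04 and 0.16 ± 0.04. *Gpt2*, the mitochondrial alanine aminotransferase, had 65, 51.7 and 60.7 CPM in WT, 27.8, 28.3 and 29.2 CPM in the libraries labelled *Atm-/-*, and 47.8, 45.1 and 45.5 CPM in *Sirt6-/-*. It was lowest in the libraries labelled *Atm-/-* (log2 fold change -1.06 ± 0.08, adjusted p = 9.2e-10) and less low in *Sirt6-/-* (-0.36 ± 0.07, adjusted p = 0.0003). The second WT library was the lowest of WT, and without it the values were -1.15 and -0.46.

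**Figure D3:**
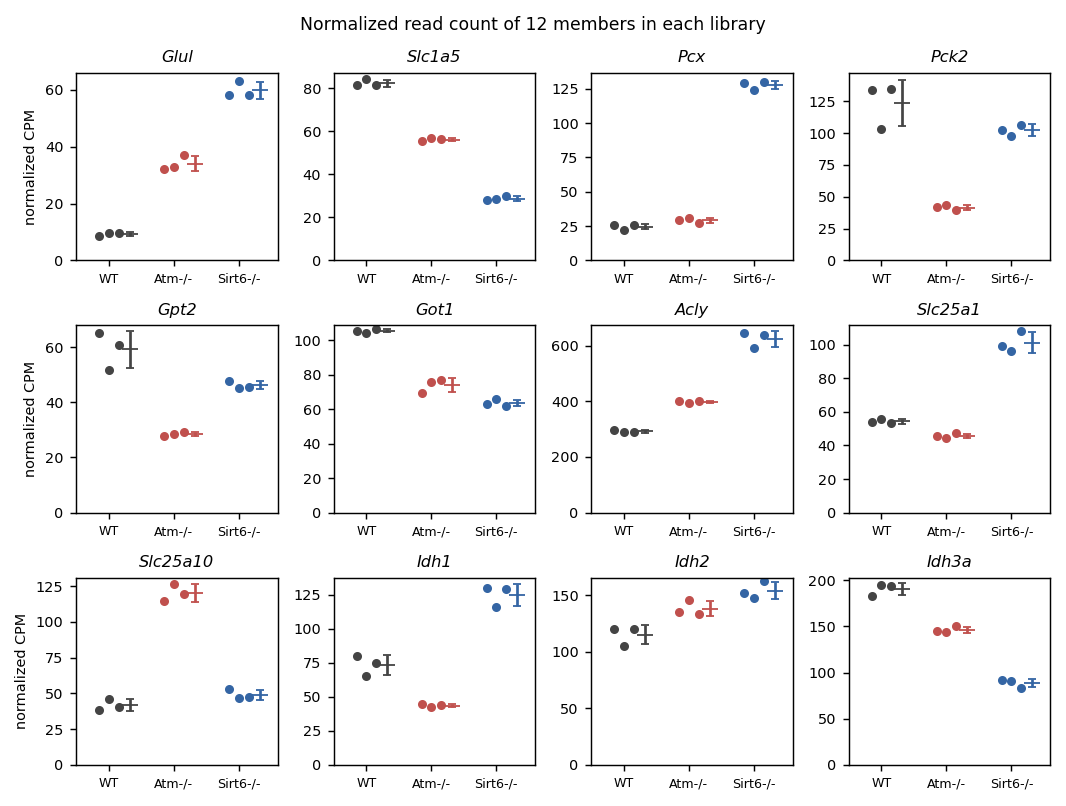
Normalized CPM (y axes, from 0) of 12 of the 36 genes in each of the 9 libraries, with the mean and SD of each genotype label beside its 3 points. *Glul*, *Acly* and *Pcx* reach their highest level in *Sirt6-/-*, *Slc25a10* in the libraries labelled *Atm-/-*, and *Slc1a5* and *Idh3a* step down from WT to *Atm-/-* to *Sirt6-/-*.

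At the entry of the cycle, citrate synthase was lower in *Sirt6-/-*. *Cs* had 453, 456 and 419 CPM in WT, 429.6, 429 and 427 CPM in the libraries labelled *Atm-/-*, and 312, 311 and 324 CPM in *Sirt6-/-*. The log2 fold change was -0.49 ± 0.04 (adjusted p = 6.2e-09) in *Sirt6-/-* and -0.05 ± 0.04 (adjusted p = 0.32; 0.11, adjusted p = 0.025, with library totals) in the libraries labelled *Atm-/-*, and the direct difference of both was -0.44 ± 0.04 (adjusted p = 3e-08). *Aco1*, the cytosolic aconitase that doubles as iron regulatory protein, was higher in both, with 81, 85.6 and 88.4 CPM in WT, 101, 96.5 and 98.6 CPM in the libraries labelled *Atm-/-*, and 115, 117 and 119 CPM in *Sirt6-/-*.

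Of the NADP-linked isocitrate dehydrogenases, *Idh1* went in opposite directions and *Idh2* was higher in both genotypes. *Idh1*, the cytosolic NADP-linked enzyme that makes NADPH (chr1:65158616-65186500, minus strand), had 79.9, 65.4 and 75 CPM in WT, 44.7, 42.3 and 43.6 CPM in the libraries labelled *Atm-/-*, and 129.9, 116 and 129 CPM in *Sirt6-/-*. The genotypes did not overlap, and the difference from WT had opposite signs, -0.75 ± 0.07 (adjusted p = 2.4e-08) and 0.77 ± 0.07 (adjusted p = 8e-09). Without the second WT library, the lowest of WT, these were -0.84 and 0.68. *Idh2*, its mitochondrial counterpart, was higher in both, with 119.9, 105 and 119.6 CPM in WT, 135, 146 and 133 CPM in the libraries labelled *Atm-/-*, and 152, 147 and 163 CPM in *Sirt6-/-*.

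The NAD-linked enzyme of the cycle is built from *Idh3a*, *Idh3b* and *Idh3g* products, of which *Idh3a* encodes the catalytic chain (chr9:54586334-54604661, plus strand). *Idh3a* had 183, 195 and 193 CPM in WT, 145, 143 and 150.2 CPM in the libraries labelled *Atm-/-*, and 92, 90.6 and 83.6 CPM in *Sirt6-/-*. Its level stepped down without overlap, by 1.3-fold and 2.15-fold (log2 fold changes -0.38 ± 0.05 and -1.10 ± 0.05, adjusted p = 1.3e-06 and 4.4e-13). *Idh3b* fell by less, at -0.17 ± 0.04 and -0.66 ± 0.04, although its call in the libraries labelled *Atm-/-* was lost with library totals. *Idh3g* was at 80.4, 83.4 and 83.4 CPM in WT and did not pass the test in any comparison, at -0.07 ± 0.05 and -0.07 ± 0.05. Within the 3 subunits, compared per kilobase in a ratio chosen after the values were seen, *Idh3a* made up 32%, 33.6% and 32.7% in WT, 29.4%, 28.5% and 29.4% in the libraries labelled *Atm-/-* and 23.6%, 23.8% and 22% in *Sirt6-/-*.

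From oxoglutarate to succinate, *Ogdh* and *Suclg1* were higher in the libraries labelled *Atm-/-* and lower in *Sirt6-/-*. *Ogdh*, the first component of oxoglutarate dehydrogenase, had 146, 157 and 149 CPM in WT, 236, 244 and 221 CPM in the libraries labelled *Atm-/-*, and 137, 138 and 134 CPM in *Sirt6-/-*. The libraries labelled *Atm-/-* were above all others (0.64 ± 0.05, adjusted p = 1.1e-09), and *Sirt6-/-* slightly below WT (-0.14 ± 0.05, adjusted p = 0.011), a call lost with library totals. *Dlst*, its second component, passed in neither (0.07 ± 0.05 and 0.01 ± 0.05). *Suclg1*, the subunit shared by both succinyl-CoA ligases, followed *Ogdh* with 113, 105 and 112 CPM in WT, 138, 146 and 131 CPM in the libraries labelled *Atm-/-*, and 74.5, 81.7 and 85.2 CPM in *Sirt6-/-*, a log2 fold change of 0.33 ± 0.06 and -0.45 ± 0.06. The nucleotide-specific partners changed by less. *Sucla2*, the ADP-forming one, was lower in *Sirt6-/-* (-0.26 ± 0.05) and had 0.01 ± 0.05 in the libraries labelled *Atm-/-* (adjusted p = 0.84), and *Suclg2*, the GDP-forming one, was -0.16 ± 0.05 and -0.18 ± 0.05, both calls being lost with library totals.

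Succinate dehydrogenase, which also is complex II of the respiratory chain, changed unequally among its 4 subunits. *Sdhd*, a membrane anchor, had 189.8, 193 and 188 CPM in WT, 111, 114 and 111 CPM in the libraries labelled *Atm-/-*, and 126, 132 and 133 CPM in *Sirt6-/-*, so that both sets lay below every WT library (-0.77 ± 0.04 and -0.54 ± 0.04, adjusted p = 1.9e-11 and 1.6e-09). *Sdhc*, the other anchor, was lower by similar amounts in both (-0.31 ± 0.05 and -0.30 ± 0.05). *Sdhb*, the iron-sulphur subunit, was higher in the libraries labelled *Atm-/-* (0.30 ± 0.05) and had -0.01 ± 0.05 in *Sirt6-/-* (adjusted p = 0.92). *Sdha*, the flavoprotein, was lower in *Sirt6-/-* (-0.18 ± 0.04, lost with library totals at an adjusted p of 0.053) and had -0.07 ± 0.04 in the libraries labelled *Atm-/-* (adjusted p = 0.15). As a share of the reads per kilobase of the 4 subunits, a ratio chosen after the values were seen, *Sdhd* was 39%, 39.2% and 38.5% in WT, 27.9%, 27.7% and 27.6% in the libraries labelled *Atm-/-* and 32.9%, 33.1% and 33.1% in *Sirt6-/-*.

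Fumarase and mitochondrial malate dehydrogenase were lower in both. *Fh1*, the fumarase gene, had 126, 133 and 122 CPM in WT, 77.9, 81.9 and 77 CPM in the libraries labelled *Atm-/-*, and 74, 71.8 and 67 CPM in *Sirt6-/-*, with log2 fold changes of -0.69 ± 0.05 and -0.84 ± 0.05 (adjusted p = 1.9e-09 and 7.3e-11). *Mdh2*, which regenerates oxaloacetate in the mitochondrion, had 461, 473 and 459 CPM in WT, 401, 422 and 411 CPM in the libraries labelled *Atm-/-*, and 279.9, 273 and 281 CPM in *Sirt6-/-*, and fell by 0.74 on the log2 scale in *Sirt6-/-* (adjusted p = 5.6e-12). Its value in the libraries labelled *Atm-/-*, -0.18 ± 0.04, lost its call with library totals. *Mdh1*, the cytosolic enzyme, did not pass the test in any comparison, with 0.05 ± 0.05 and -0.03 ± 0.05.

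Anaplerotic genes held some of the widest differences. *Pcx* (pyruvate carboxylase, which makes oxaloacetate from pyruvate; chr19:4510472-4621752, plus strand) had 25.5, 22.2 and 25.9 CPM in WT, 29.1, 31.2 and 27.3 CPM in the libraries labelled *Atm-/-*, and 129, 124 and 130.03 CPM in *Sirt6-/-*. *Sirt6-/-* stood 5.21-fold above WT, a log2 fold change of 2.38 ± 0.07 (adjusted p = 9.2e-16), and the libraries labelled *Atm-/-* only slightly above (0.25 ± 0.07, adjusted p = 0.0043). Without the second WT library these were 2.30 and 0.18. *Pck2* (mitochondrial PEP carboxykinase; chr14:55540266-55551242, plus strand) was low in the libraries labelled *Atm-/-* instead, with 133, 103 and 135 CPM in WT, 41.9, 43.2 and 39.2 CPM in the libraries labelled *Atm-/-*, and 103, 97.8 and 107 CPM in *Sirt6-/-*. It was 2.98-fold lower there (-1.58 ± 0.08, adjusted p = 9e-12), and slightly lower in *Sirt6-/-* (-0.27 ± 0.08, adjusted p = 0.0045), whose libraries overlapped WT through its second library at the low end. Without that library the log2 fold changes were -1.70 and -0.40. *Me2*, the NAD-linked mitochondrial malic enzyme, had 109, 116 and 116 CPM in WT, 119, 114 and 107 CPM in the libraries labelled *Atm-/-*, and 64.6, 58.4 and 64.5 CPM in *Sirt6-/-*, a fall in *Sirt6-/-* (-0.87 ± 0.06, adjusted p = 1.1e-10) beside -0.01 ± 0.05 in the libraries labelled *Atm-/-* (adjusted p = 0.92; 0.15, adjusted p = 0.023, with library totals). *Me3*, the NADP-linked one, was higher in both from few reads, with 0.408, 0.224 and 0.413 CPM in WT, 0.663, 0.485 and 1.03 CPM in the libraries labelled *Atm-/-*, and 2.15, 1.33 and 1.83 CPM in *Sirt6-/-*. Its log2 fold change was 2.33 ± 0.42 in *Sirt6-/-* (adjusted p = 6.2e-05); that in the libraries labelled *Atm-/-* (1.05 ± 0.44, adjusted p = 0.044) lost its call in 9 of the alternative fits. Without the second WT library the log2 fold change of *Me3* was 2.09 in *Sirt6-/-* and 0.81, not called (adjusted p = 0.16), in the libraries labelled *Atm-/-*.

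Genes of citrate export and cleavage rose in *Sirt6-/-*. *Acly* (ATP-citrate lyase; chr11:100476353-100528000, minus strand) had 297, 290.1 and 289 CPM in WT, 400.2, 395 and 399.8 CPM in the libraries labelled *Atm-/-*, and 647, 592 and 638 CPM in *Sirt6-/-*, stepping up without overlap (0.45 ± 0.04 and 1.10 ± 0.04, adjusted p = 2.4e-08 and 4.2e-14). *Slc25a1*, the citrate carrier of the inner mitochondrial membrane (chr16:17925223-17928219, minus strand), had 53.8, 55.7 and 53.5 CPM in WT, 45.7, 44.6 and 47.2 CPM in the libraries labelled *Atm-/-*, and 99.2, 96.4 and 108 CPM in *Sirt6-/-*. It was higher in *Sirt6-/-* (0.90 ± 0.06, adjusted p = 7.4e-11) and lower in the libraries labelled *Atm-/-* (-0.24 ± 0.06, adjusted p = 0.0011), the latter not with library totals.

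The other carriers each had their own pattern. *Slc25a10*, which exchanges malate and succinate for phosphate (chr11:120491840-120499187, plus strand), had 38.5, 46.3 and 40.3 CPM in WT, 115, 127 and 119 CPM in the libraries labelled *Atm-/-*, and 53.1, 46.8 and 47.5 CPM in *Sirt6-/-*. It was 2.88-fold higher in the libraries labelled *Atm-/-* (1.53 ± 0.07, adjusted p = 1.5e-12) and had 0.24 ± 0.07 in *Sirt6-/-* (adjusted p = 0.0065, not called without the first *Sirt6-/-* library). *Slc25a11*, the oxoglutarate carrier of the malate-aspartate shuttle, was modestly higher in both (0.33 ± 0.05 and 0.23 ± 0.05). The shuttle's aspartate-glutamate carriers were lower in both. *Slc25a12* was -0.44 ± 0.05 and -0.48 ± 0.05, and *Slc25a13*, with 78.8, 87.9 and 78.4 CPM in WT, 61.9, 60.7 and 62.6 CPM in the libraries labelled *Atm-/-*, and 34.5, 38.8 and 37.5 CPM in *Sirt6-/-*, was -0.40 ± 0.06 and -1.15 ± 0.06 (adjusted p = 1.3e-05 and 1.1e-11).

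Shares within isozyme pairs, in reads per listed kilobase, do not depend on the scaling between libraries. With 3 against 3 libraries the exact two-sided permutation test cannot go below 0.10, so no share can pass 0.05; 0.10 was reached wherever genotypes did not overlap. *Idh1* made up 33.2%, 31.6% and 31.8% of *Idh1* and *Idh2* in WT, 19.8%, 17.8% and 19.6% in the libraries labelled *Atm-/-* and 38.9%, 36.9% and 37.2% in *Sirt6-/-*, without overlap (exact p = 0.10 in each comparison). *Got1* made up 24.1%, 23.9% and 24.7% of *Got1* and *Got2* in WT, 16.3%, 17.3% and 17.2% in the libraries labelled *Atm-/-* and 14.9%, 15.1% and 14.3% in *Sirt6-/-*. The cytosolic *Mdh1* took 18%, 16.6% and 19% of both malate dehydrogenases in WT, 21.1%, 19.99% and 19.8% in the libraries labelled *Atm-/-* and 26.5%, 26% and 26.2% in *Sirt6-/-*. *Slc25a12* took 57.4%, 55.2% and 58.2% of both aspartate-glutamate carriers in WT and 69.2%, 67.7% and 66% in *Sirt6-/-*, whereas the 56.4%, 57.4% and 54.9% of the libraries labelled *Atm-/-* overlapped WT (exact p = 0.50). *Sucla2* held 60.2%, 61.8% and 60.1% of both ligase partners in WT, which the 65.4%, 63.5% and 61.4% of the libraries labelled *Atm-/-* overlapped (exact p = 0.20). In *Sirt6-/-* it held 58.3%, 59.9% and 60.1%, below the other genotypes without overlap (exact p = 0.10 in each), although the highest *Sirt6-/-* library (60.07%) and the lowest WT library (60.11%) nearly met. *Me2* held from 98.2% to 99.9% of the mitochondrial pair *Me2* and *Me3*. *Me1*, a malic enzyme among the other genes of these routes, is not part of this pair. Its means were 197 ± 5.03 CPM in WT, 151 ± 7.03 CPM in the libraries labelled *Atm-/-* and 162 ± 8.45 CPM in *Sirt6-/-* (± SD).

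**Figure D4:**
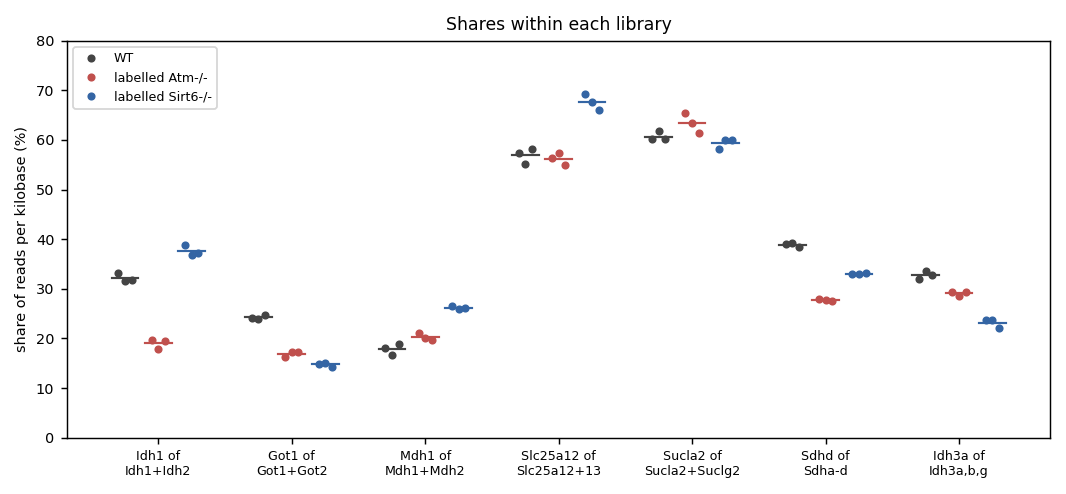
Share in percent (y axis) of the first gene in the reads per kilobase of each pair or complex, 1 point per library and a line at the mean of each genotype label. The share of *Idh1* lies lowest in the libraries labelled *Atm-/-*.

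Summed over steps, the 36 genes together took 4916 ± 10.5 CPM in WT, 4824 ± 46.0 in the libraries labelled *Atm-/-* and 4692 ± 60.5 in *Sirt6-/-* (mean ± SD, n = 3). All sums are on the TMM scale. Its factors were 0.9424 to 0.9475 in WT, 1.051 to 1.054 in the libraries labelled *Atm-/-* and 1.003 to 1.009 in *Sirt6-/-*. These factors differ between genotypes by more than the sums of all 36 genes do, so the order of those sums depends on the scaling. Fumarase and malate dehydrogenase summed to 746 ± 4.11, 649.6 ± 13.2 and 499 ± 8.598 CPM in this order of genotypes, and NAD-linked isocitrate dehydrogenase to 425 ± 7.82, 360.1 ± 6.95 and 264 ± 4.50 CPM. Succinate dehydrogenase was lower in both, at 582 ± 1.86, 489.6 ± 4.15 and 477 ± 10.8 CPM. Oxoglutarate dehydrogenase and succinyl-CoA ligase did not fall in both. The former summed to 308 ± 14.1, 400 ± 15.6 and 295 ± 2.77 CPM and the latter to 329 ± 10.8, 347 ± 12.6 and 269 ± 6.27 CPM. Citrate synthase with the cytosolic aconitase *Aco1*, which was higher in both, had 528 ± 17.8, 527 ± 2.76 and 433 ± 9.33 CPM. NADP-linked isocitrate dehydrogenase, which includes the cytosolic *Idh1*, summed highest in *Sirt6-/-*, with 188 ± 15.5, 181 ± 5.70 and 279 ± 14.6 CPM. The transaminases summed to 540.3 ± 8.28, 515.7 ± 12.4 and 528.9 ± 4.66 CPM, which also differ by less than the factors do. The glutamine step had a like sum in each, at 372 ± 9.92, 389.8 ± 8.44 and 394 ± 6.33 CPM, while its genes moved in opposite directions; *Glud1* holds most of that sum.

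**Figure D5:**
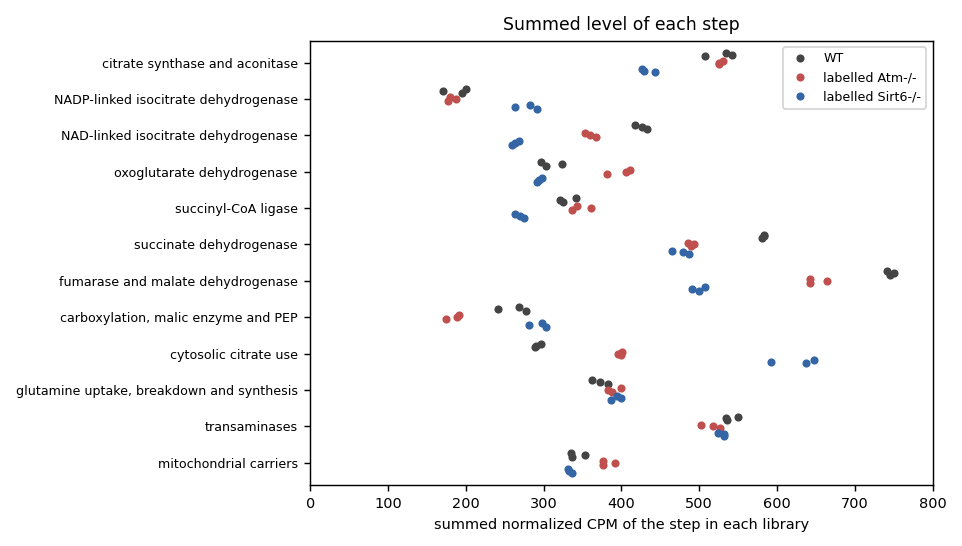
Summed normalized CPM (x axis, from 0) of the genes of each step in each of the 9 libraries; grey is WT, red the libraries labelled *Atm-/-* and blue *Sirt6-/-*. Fumarase with malate dehydrogenase and NAD-linked isocitrate dehydrogenase step down from grey to red to blue, and cytosolic citrate use steps up.

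Other genes of these routes were read from a list of 29, of which 27 passed the low-count filter; *Pck1*, the cytosolic PEP carboxykinase, was at 0 reads in all 9 libraries, and *Slc25a18* was also too low. In the libraries labelled *Atm-/-*, 7 were higher, 12 lower and 8 did not pass, and in *Sirt6-/-* 6, 14 and 7. This is 25.9% higher and 44.4% lower in the former, where 35.3% and 32.8% of all genes were, and 22.2% and 51.9% in *Sirt6-/-*, where 38.7% and 36.7% were. *Slc38a1*, a sodium-coupled glutamine transporter, had 142, 139 and 141 CPM in WT, 333, 325 and 319 CPM in the libraries labelled *Atm-/-*, and 73.3, 64 and 67.3 CPM in *Sirt6-/-*, with opposite differences of 1.21 ± 0.05 and -1.05 ± 0.05 and no overlap. *Slc7a5*, the transporter that exports glutamine for leucine, had 322, 270.4 and 327 CPM in WT, 178, 162 and 169.9 CPM in the libraries labelled *Atm-/-*, and 122, 116 and 104 CPM in *Sirt6-/-*, lower in both (-0.85 ± 0.07 and -1.43 ± 0.07). *Asns*, which spends glutamine to make asparagine, was also lower in both, at -0.54 ± 0.06 and -1.02 ± 0.07. *Prodh*, the first enzyme of proline breakdown, rose from few reads in the libraries labelled *Atm-/-* (3.35 ± 0.44), with 0.753, 0.224 and 0.222 CPM in WT, 3.2, 4.37 and 4.81 CPM in the libraries labelled *Atm-/-*, and 0.644, 1.08 and 0.27 CPM in *Sirt6-/-*. *Pycr1*, which makes proline, was lower in the libraries labelled *Atm-/-* (-1.17 ± 0.15) and had 0.09 ± 0.14 in *Sirt6-/-* (adjusted p = 0.59). *Gpt*, the cytosolic alanine aminotransferase, was low throughout, with 4.8, 4.44 and 4.32 CPM in WT, 6.52, 6.37 and 5.85 CPM in the libraries labelled *Atm-/-*, and 2.67, 1.61 and 2.46 CPM in *Sirt6-/-* and log2 fold changes of 0.47 ± 0.18 and -1.01 ± 0.19.

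The TGATGNAA motif of the *Pck2*, *Got1* and *Me3* promoters was also found in *Asns* (-23), *Pycr1* (-103) and *Slc7a11* (-66 and -47) among 25 of these other genes with a promoter (12%). Of the 6, *Pck2*, *Got1*, *Asns* and *Pycr1* were lower in the libraries labelled *Atm-/-*, *Me3* was higher, and *Slc7a11*, the cystine-glutamate exchanger, had 0.04 ± 0.08 (adjusted p = 0.66). In *Sirt6-/-*, *Pck2*, *Got1* and *Asns* were lower, *Me3* and *Slc7a11* were higher, and *Pycr1* was not called. Of all tested genes, 35.3% were higher and 32.8% lower in the libraries labelled *Atm-/-*, and 38.7% and 36.7% in *Sirt6-/-*. A match describes letters in a window and not binding, and the motifs were chosen with earlier results of these data known.

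Compared directly, *Sirt6-/-* against the libraries labelled *Atm-/-*, 11 of the 36 genes were higher, 15 lower and 10 did not pass. This is 30.6% and 41.7%, where 36.7% of all genes were higher and 36.5% lower, and 6 genes (16.7%) differed at least 2-fold, where 25.6% of all genes did. The median log2 fold change of the list was -0.07. The 5 that were at least 2-fold higher in *Sirt6-/-* were *Pcx* (2.13 ± 0.07), *Idh1* (1.52 ± 0.07), *Pck2* (1.30 ± 0.08), *Me3* (1.28 ± 0.37) and *Slc25a1* (1.14 ± 0.06), and the 1 that was lower was *Slc25a10* (-1.29 ± 0.07). *Slc1a5* was just inside 2-fold, at -0.97 ± 0.06 (adjusted p = 3.3e-11). *Ogdh* and *Suclg1* were each lower in *Sirt6-/-*, by 1.72-fold and 1.72-fold. With library totals this comparison gave 10 higher and 18 lower in the list, and 45.5% in place of 50.1% of the calls over all genes were higher.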

How the data were processed

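RNA-Seq libraries of 9 MEF samples (3 WT, 3 labelled *Atm-/-*, 3 labelled *Sirt6-/-*) had been made from oligo(dT)-selected mRNA. For each library the authors deposited, per gene symbol, the read count (whole numbers, not normalized), an RPKM and a transcript length. RPKM had been made by the authors from those counts and that length; only counts and lengths were used here. The submitters' processing notes name mm10; the aligner, counter and annotation, and the handling of strand and of reads shared with pseudogenes or paralogs, are not given in the sources used here.

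Counts of all 9 libraries were fitted together in edgeR 4.0.16 (R 4.3.3): filterByExpr by genotype, TMM factors, glmQLFit with a prior count of 0.125, glmQLFTest for 3 contrasts, and Benjamini-Hochberg adjustment over 13757 genes, called at an adjusted p under 0.05. One fit gives all 3 genotypes 1 scale. Standard errors came from the F statistic. CPM are per 1000000 reads of the TMM-scaled library. Shares were tested with the exact two-sided permutation test. The procedure was also run on simulated counts drawn from WT means, with few genes changed and equally in both directions. Such counts do not test the scaling between these genotypes. Depth was 32187040 to 33837949 reads, and every gene of the list except *Gls2* and *Me3* had at least 269 reads in each library. Counting error was thus small for all but those 2, and it covers reads, not cultures.

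All 36 genes are named. Of the other genes of these routes, those with an adjusted p under 0.05 and at least 2-fold against WT are described. *Slc38a2* was added beside *Slc1a5*, *Me1* beside *Me2* and *Me3*, and *Slc7a11* for its motif. The genes, lists and motifs were chosen with earlier results of these data known. Gene positions are from GENCODE M21 on GRCm38 and promoters from RefSeq on GRCm38.p6; promoters of *Idh3a*, *Sdhc*, *Me2*, *Gls2* and *Slc1a5* were not analysed here. Alternatives were DESeq2 size factors, library totals, no filter, at least 10 reads in every sample, fits of 6 samples, a block for replicate number, single samples left out, the DESeq2 1.42.0 Wald test, a 2-fold threshold and shares without division by length. Some genes of these routes are not reported here.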

Additional observations from a re-analysis of the deposited data

How the results depend on the processing

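The 36 genes in 3 comparisons gave 108 values, of which 86 passed the test. Over the 7 other fits and scalings and each sample left out in turn, 0 of the 86 reversed, 72 kept their call under all and 14 lost it under at least 1, mostly with library totals (*Idh3b*, *Suclg2*, *Mdh2* and *Slc25a1* in the libraries labelled *Atm-/-* against WT; *Ogdh*, *Suclg2* and *Sdha* in *Sirt6-/-* against WT; *Idh2* between both) or with 1 sample left out (*Me3*, *Gls2*, *Glud1*, *Slc25a10*, *Sdha* and *Fh1*; *Suclg2* and *Idh2* also). The cause was not tested. Single libraries whose absence ended a call against WT were WT 1 (adjusted p = 0.063) and *Atm-/-* 1 (0.068) for *Suclg2* in the libraries labelled *Atm-/-*, each WT library, *Sirt6-/-* 1 and 3 and *Atm-/-* 1 and 3 (0.057 to 0.22) for *Me3* there, and in *Sirt6-/-* WT 1, WT 3 and *Sirt6-/-* 2 (0.053, 0.059 and 0.064) for *Gls2*, WT 1, WT 2, *Sirt6-/-* 1 and *Sirt6-/-* 2 (0.1, 0.064, 0.084 and 0.058) for *Glud1* and *Sirt6-/-* 1 (0.055) for *Slc25a10*. Between both they were *Sirt6-/-* 3, *Atm-/-* 1 and *Atm-/-* 3 (0.12, 0.081 and 0.094) for *Idh2*, *Sirt6-/-* 1 and 2 (0.055 and 0.078) for *Sdha*, and *Sirt6-/-* 3 and *Atm-/-* 2 (0.072 and 0.054) for *Fh1*, all from the edgeR test. *Me3* was not tested with at least 10 reads in every sample. At a 2-fold threshold the list had 4 genes higher and 2 lower in the libraries labelled *Atm-/-* against WT, 5 and 3 in *Sirt6-/-* against WT, and 5 and 1 between both, and all genes 1787 and 1343, 2420 and 1616, and 1941 and 1577. With library totals the other genes of these routes had 12 higher in the libraries labelled *Atm-/-*, in place of 7.

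Calls were also gained. With library totals *Dlst* (0.23), *Sucla2* (0.17), *Mdh1* (0.21), *Glud1* (0.25), and, with the opposite sign, *Cs* and *Me2* (adjusted p = 0.025 and 0.023) passed the edgeR test in the libraries labelled *Atm-/-* against WT, and *Dlst* (-0.13), *Mdh1* (-0.15) and *Slc25a11* (-0.16) between both. *Glud1* (at least 10 reads in every sample, or without WT 3) and *Dlst* (without WT 2) passed in the libraries labelled *Atm-/-*, and *Slc25a11* without *Atm-/-* 3 between both.

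Small log2 fold changes that had not passed the test changed sign. In the libraries labelled *Atm-/-* against WT, library totals gave *Cs* 0.11, *Idh3g* 0.081, *Sdha* 0.088 and *Me2* 0.15; at least 10 reads in every sample gave *Me2* 0.020. With 1 sample left out *Sucla2* ran from -0.021 to 0.051, *Mdh1* from -0.0055 to 0.093 and *Me2* from -0.048 to 0.030. In *Sirt6-/-* against WT, library totals gave *Idh3g* 0.018, *Sdhb* 0.084 and *Mdh1* 0.057, at least 10 reads gave *Sdhb* 0.0097, and DESeq2 size factors and the Wald test gave *Dlst* -0.0020 and -0.0031. With 1 sample left out *Dlst* ran from -0.023 to 0.043, *Sdhb* from -0.062 to 0.034 and *Mdh1* from -0.094 to 0.0042. Between both, library totals gave *Idh3g* -0.063, *Sdhc* -0.059, *Glud1* -0.039 and *Got2* -0.045, at least 10 reads *Idh3g* -0.0088 and *Sdhc* -0.0040, size factors *Idh3g* -0.0053 and *Sdhc* -0.00034, the Wald test *Idh3g* -0.0058 and *Sdhc* -0.00082, no filter *Idh3g* -0.0044, and 6 samples *Idh3g* -0.0047. With 1 sample left out *Idh3g* ran from -0.022 to 0.024 and *Sdhc* from -0.031 to 0.041.

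In the fit with a replicate block the list kept 13 higher and 15 lower in the libraries labelled *Atm-/-* against WT, 13 and 19 in *Sirt6-/-* against WT, and 11 and 15 between both, and all 108 values stayed on their side of the threshold. Deviations of same-numbered libraries correlated at -0.0135 to 0.0179, -0.0201 to 0.0277 and 0.0179 to 0.0307 in these comparisons. Those of differently numbered libraries correlated at -0.011 to 0.0213, -0.033 to 0.0224 and -0.0318 to 0.000302. Between both genotypes 6 of 6 libraries correlated best with their own number, a hint from the data and not the design. Whether the numbers pair the libraries is therefore not settled.

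Without division by length the share of *Idh1* was 38.9%, 24.0% and 44.8% in WT, the libraries labelled *Atm-/-* and *Sirt6-/-*, that of *Got1* 21.9%, 15.2% and 13.2%, that of *Mdh1* 24.9%, 28.0% and 35.2%, that of *Sucla2* 48.8%, 51.8% and 47.5% and that of *Slc25a12* 55.4% and 54.7% in the first 2. With 3 libraries a genotype and no known pairing, small differences and the low counts of *Me3* and *Gls2* are least certain.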
